A study of Oryza sativa with 12 samples.

Results

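IPA1, SPL7 and SPL17 of rice were looked up by name among the genes measured on the Affymetrix Rice Genome Array. A probe set (the group of short probes that gives 1 signal) was taken where the platform annotation or the gene table ties it to exactly 1 gene whose symbol or synonym, without a leading Os, is one of these names. The search gave 3 probe sets of 3 genes, among 57194 rice probe sets and 17905 genes with a probe set of their own. IPA1 (LOC4345998, also named SPL14) has 1 probe set. The name SPL7 belongs to 2 genes, the SPL factor SPL7 (LOC4336597) and the heat stress factor HSFA4D (LOC4339409), whose name SPL7 stands for spotted leaf, with 1 probe set each. SPL17 was found in 0 genes and is not analysed here.

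SPL genes encode the SQUAMOSA promoter binding protein-like transcription factors, a plant family with a shared DNA-binding domain. IPA1, for ideal plant architecture, limits tillering and favours branching of the panicle in rice, and SPL7 and SPL17 are known to act on the same traits. The microRNA miR156 targets the transcripts of IPA1, SPL7, SPL17 and several other members, so that their RNA depends on degradation as well as on transcription.

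RNA came from stem bases, the region where crown roots form, of 8-day-old seedlings of the cultivar Taichung 65, either wild type or crown rootless 1 (crl1), a mutant without crown roots. Seedlings of both genotypes, transferred at 7 days of age, stood in liquid medium that received the auxin indole-3-acetic acid to a final 1e-06 M. Stem bases were taken just before (0 h), 2 h later and 4 h later, which gives 6 groups of 2 arrays. Each extract held 20 stem bases, and the arrays of a group came from separate repetitions of the experiment. Untreated plants of the later times were not analysed here, so time and auxin cannot be told apart. In RNA of a whole stem base, fewer cells of a type and less RNA per cell cannot be told apart either.

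Signals are MAS5 intensities, scaled by the authors to a mean of 100 on every array after trimming. The array carries 64 reporter probe sets for genes that rice lacks, and their 95th percentile on an array served as its background, which ran from 5.83 to 18.5. The shoot meristem gene OSH1 lay above it on all 12 arrays, with signals of 519 to 1779 on its brightest probe set. The name of the mutated gene, CRL1, matched 0 genes, so its own level could not check the genotypes. Repetition 2 of wild type at 2 h stood apart, with the highest background (18.5 against 5.83 to 16.9 on the other 11 arrays) and a 3′ to 5′ signal ratio of 35.6 against 3.08 to 17.3 on one of 2 GAPDH controls. On the other control its ratio, 23.0, lay inside the range of 1.43 to 32.3 of the other arrays. At 0 h this other control had ratios of 27.67 and 28.51 in crl1 and 10.85 and 5.21 in wild type. The first control ran the other way at 0 h, with 3.08 and 8.72 in crl1 and 9.41 and 17.3 in wild type.

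IPA1 was chosen by its low signal in crl1 against wild type on these arrays, and SPL7 and SPL17 as its relatives, so the genotype difference of IPA1 is described here without a test. In wild type its signals in repetitions 1 and 2 were 108.4 and 74.6 at 0 h, 81.8 and 69.7 at 2 h, and 107.6 and 74.2 at 4 h. In crl1 they were 17.7 and 21.7 at 0 h, 15.5 and 19.7 at 2 h, and 33.1 and 30.8 at 4 h. The lowest wild-type array, at 69.7, lay above the highest crl1 array, at 33.1. All 12 arrays were above their own background, but crl1 came close to it, with a ratio of 1.17 at the lowest against 18.6 at the highest wild-type array.

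By geometric mean the groups ran from wild type at 0 h (89.9) through wild type at 4 h (89.3) and at 2 h (75.5) to crl1 at 4 h (31.9), at 0 h (19.6) and at 2 h (17.5). Arrays of neighbouring groups overlapped within wild type, and those of crl1 at 0 h and 2 h overlapped too. The gap in that order fell between wild type at 2 h and crl1 at 4 h. The crl1 arrays at 4 h also lay above the other 4 crl1 arrays.

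**Figure D1:**
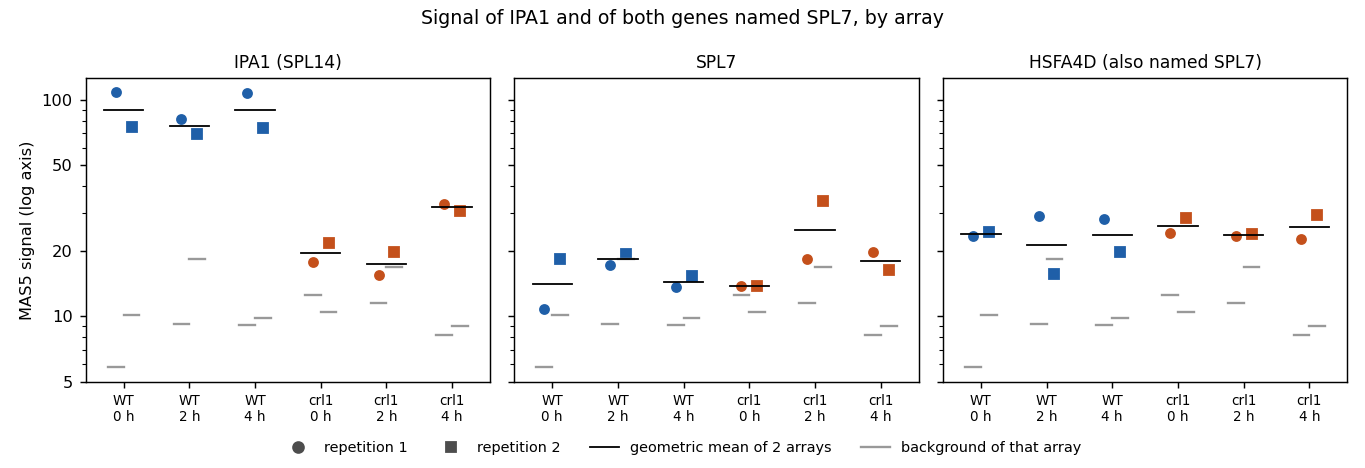
MAS5 signal (log axis) of IPA1, SPL7 and HSFA4D on each of the 12 arrays, by genotype and time. Circles and squares are repetitions 1 and 2, black lines the geometric mean of 2 arrays and grey lines the background of each array. IPA1 ran from 69.7 to 108.4 in wild type and from 15.5 to 33.1 in crl1, while for the other 2 genes the ranges of the genotypes overlapped.

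On the log2 scale, crl1 minus wild type for IPA1 was -2.20 ± 0.30 (SE, 2 arrays against 2) at 0 h, -2.11 ± 0.30 at 2 h and -1.49 ± 0.30 at 4 h. These are signals 4.58-fold, 4.32-fold and 2.80-fold lower in crl1. The mean over the 3 times was -1.93 ± 0.17, or 3.81-fold. Without the wild-type 2 h array that stood apart the mean was -1.97. Of the 32524 probe sets kept after a filter on low signals, 143 had a lower mean difference.

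Within a repetition, the ratio of wild type to crl1 for IPA1 was 6.11, 5.29 and 3.25 at 0 h, 2 h and 4 h in repetition 1, and 3.44, 3.53 and 2.41 in repetition 2. Wild type was higher in 6 of 6 such pairs. The ratio was larger in repetition 1 at each time, and lowest at 4 h in both repetitions. Averaged over times, it came to 2.24 on the log2 scale in repetition 1 and 1.62 in repetition 2.

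Changes with time were not what chose IPA1, although they share its arrays. In wild type, IPA1 differed from 0 h by -0.25 ± 0.30 at 2 h (limma adjusted p = 0.85) and by -0.01 ± 0.30 at 4 h (adjusted p = 1.0). In crl1, the value at 2 h was -0.17 ± 0.30 (adjusted p = 1.0). At 4 h it was 0.70 ± 0.30 with a 95% interval of 0.05 to 1.35, unadjusted p = 0.037 and adjusted p = 0.79 in limma, so the higher crl1 level at 4 h did not pass the threshold of 0.05. Both crl1 arrays at 4 h lay above both at 0 h, as did those of 25.4% of all kept probe sets.

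The response of IPA1 in crl1 minus that in wild type was 0.09 ± 0.42 at 2 h and 0.71 ± 0.42 at 4 h, with limma adjusted p = 0.99 for each. The 95% interval at 4 h ran from -0.21 to 1.63. The smaller genotype difference at 4 h than at 0 h was therefore not separated from the spread between arrays. In this contrast 0% of kept probe sets passed by limma at either time, while 5.63% at 2 h and 3.35% at 4 h had an unadjusted p under 0.05.

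SPL7, the measured relative closest to IPA1 in known role, had no difference of that size between the genotypes. Its wild-type signals in repetitions 1 and 2 were 10.8 and 18.4 at 0 h, 17.4 and 19.3 at 2 h, and 13.7 and 15.3 at 4 h. In crl1 they were 13.9 and 13.8 at 0 h, 18.4 and 34.2 at 2 h, and 19.9 and 16.3 at 4 h. The genotypes overlapped at 0 h and 2 h, and at 4 h both crl1 arrays were the higher ones, as for 23.5% of all kept probe sets. SPL7 was above background on 12 of 12 arrays but never more than 2.42 times it.

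Crl1 minus wild type for SPL7 was -0.03 ± 0.41 at 0 h, 0.45 ± 0.41 at 2 h and 0.32 ± 0.41 at 4 h (limma adjusted p = 0.99, 0.68 and 0.93). The mean over the times was 0.25 ± 0.24 with adjusted p = 0.64. Its 95% interval ran from -0.28 to 0.78. Wild type was the higher array in 1 of 6 pairs of one time and repetition. A signal 3.81-fold under the wild-type median of SPL7, 16.3, would lie below the lowest background, 5.83.

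With time, the highest SPL7 value was in crl1 at 2 h, 0.86 ± 0.41 above 0 h (95% interval -0.06 to 1.77, limma adjusted p = 1.0). That value rests largely on repetition 2, at 34.2, and was 0.41 without it. In wild type the differences from 0 h were 0.38 at 2 h and 0.04 at 4 h, and in crl1 at 4 h 0.38, with adjusted p from 0.84 to 1.0. The difference between the responses was 0.48 ± 0.59 at 2 h and 0.34 ± 0.59 at 4 h, neither past the threshold (adjusted p = 0.93 and 0.99).

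HSFA4D shares only a name with the SPL family. Its signals ran from 15.7 to 29.1 in wild type, and from 22.9 to 29.5 in crl1. The genotypes overlapped at each time. Its mean difference was 0.14 ± 0.21 (95% interval -0.32 to 0.60, limma adjusted p = 0.77), and 11 of 12 arrays lay above background.

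The family list held SPL1 to SPL19, of which 11 genes had a probe set of their own and passed the filter, IPA1 and SPL7 included, and 8 names had none. Apart from IPA1, which was chosen for it, 0 of 10 SPL genes passed the threshold for crl1 against wild type at 0 h, 2 h, 4 h or over the mean of the times. Over all kept probe sets, 0.101% passed at 0 h, 0.0738% at 2 h, 0.0799% at 4 h and 1.38% over the mean. At an unadjusted p under 0.05 the 10 genes gave 3, 1 and 0 at the single times and 2 over the mean, where 9.05%, 11.03%, 7.36% and 16.6% of all kept probe sets did. The median difference of the 10 was -0.28 at 0 h, 0.01 at 2 h and 0.12 at 4 h, against -0.03, 0.08 and 0.03 over all kept probe sets. These counts are of the fit without the repetition as a block. With that block 1 of the 10, SPL12, passed over the mean, as did 3.19% of all kept probe sets.

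SPL12, also a miR156 target, had the lowest mean difference over the times after IPA1. In wild type its signals in repetitions 1 and 2 were 126.6 and 156.7 at 0 h, 96.1 and 166.4 at 2 h, and 107.6 and 160.3 at 4 h. In crl1 they were 66.4 and 65.9 at 0 h, 67.8 and 65.8 at 2 h, and 91.1 and 130.7 at 4 h. Both crl1 arrays were below both wild-type arrays at 0 h and at 2 h, as were those of 24.3% and 15.7% of all kept probe sets. The genotypes overlapped at 4 h.

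SPL12 differed between crl1 and wild type by -1.09 ± 0.31 at 0 h, -0.92 ± 0.31 at 2 h and -0.27 ± 0.31 at 4 h (limma adjusted p = 0.37, 0.39 and 0.92). Its mean difference was -0.76 ± 0.18, 1.69-fold, with a 95% interval of -1.15 to -0.37, unadjusted p = 0.0014 and adjusted p = 0.071. Wild type was higher in 6 of 6 pairs of one time and repetition, by 1.18 to 2.53 times. With the repetition as a block the same difference passed the threshold, at adjusted p = 0.021, as did 3.19% of all kept probe sets. Without repetition 2 of wild type at 2 h, the array that stood apart, it was -0.63 with adjusted p = 0.085. Without repetition 1 it was -0.89 with adjusted p = 0.010, in a fit where that array alone stands for its group and 3675 of all kept probe sets passed, against 449 with all arrays.

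In crl1 at 4 h against 0 h, 9 of the 11 SPL genes lay above 0 and 2 below, where 40.2% of all kept probe sets lay below. The highest value was that of SPL8, without an unadjusted p under 0.05. SPL12 and IPA1 were among the 9. Each had both crl1 arrays at 4 h above both at 0 h, as did 25.4% of all kept probe sets. SPL12 was 0.72 ± 0.31 above 0 h there (95% interval 0.04 to 1.40, unadjusted p = 0.040, limma adjusted p = 0.79), beside 0.70 for IPA1, and 0.0154% of kept probe sets passed in that comparison. Neither gene passed it. Over the 12 arrays the log2 signals of the pair correlated at r = 0.77. Within crl1, over 6 arrays, r was 0.80, and within wild type it was -0.63. These points share arrays, and the pooled r spans the gap between the genotypes.

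**Figure D2:**
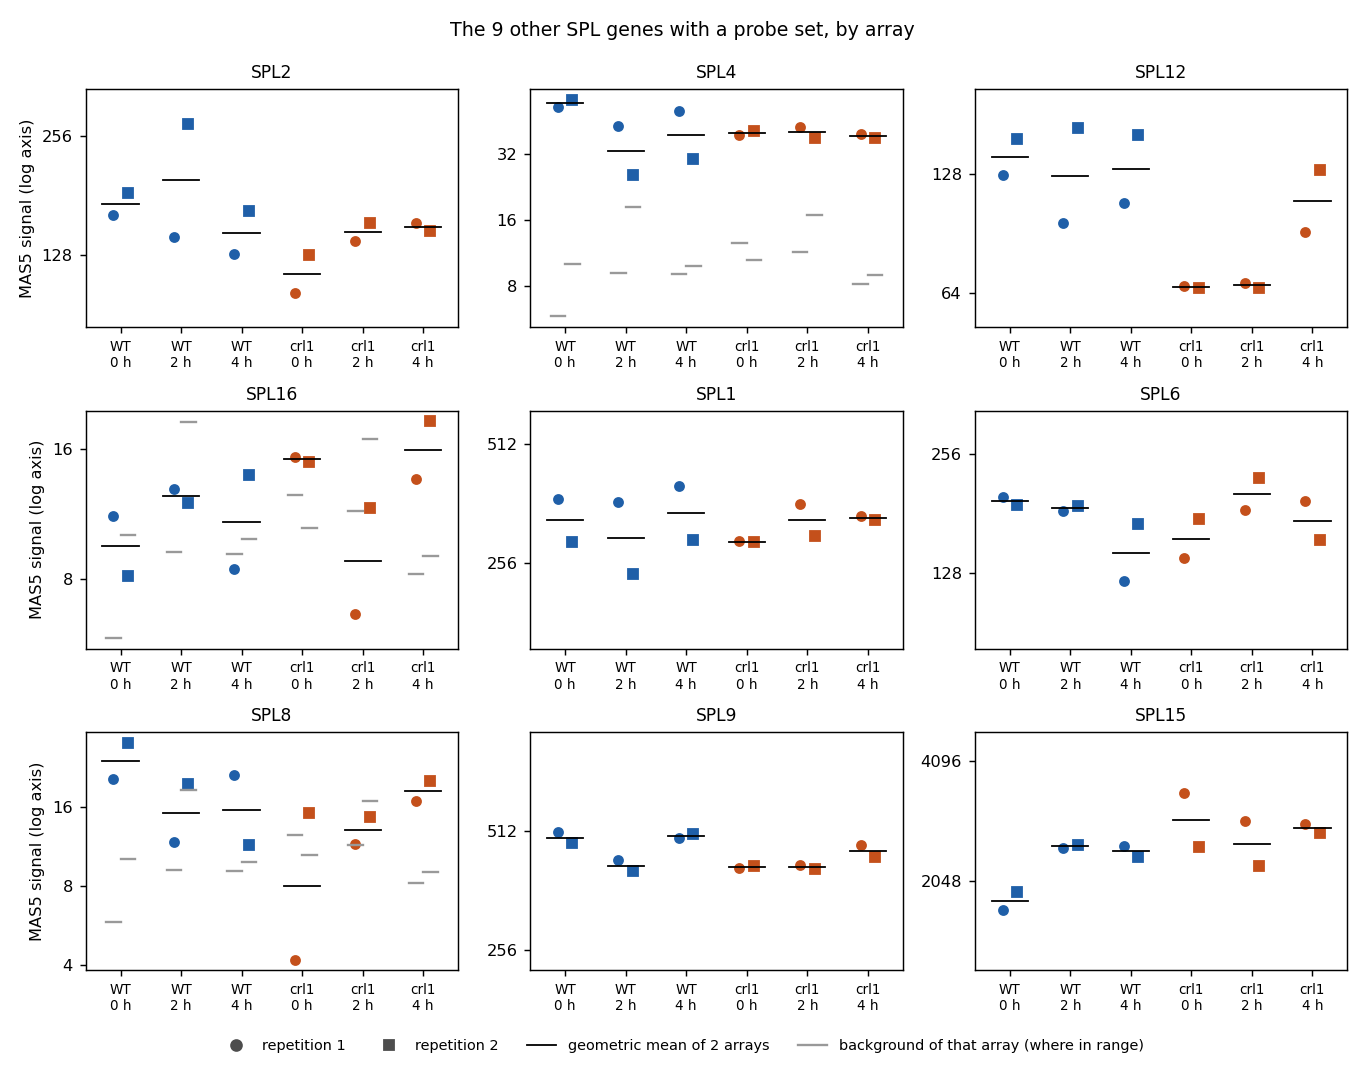
MAS5 signal (log axis) of the 9 SPL genes other than IPA1 and SPL7 on each of the 12 arrays, 1 probe set per gene. Circles and squares are repetitions 1 and 2, black lines the geometric mean of 2 arrays and grey lines the background of the array where it is in range. SPL12 stood at 65.8 to 67.8 on the crl1 arrays of 0 h and 2 h and at 91.1 and 130.7 at 4 h.

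The other miR156 targets measured were SPL2, SPL4 and SPL16. SPL2 had 161.5 and 183.3 in wild type at 0 h against 102.8 and 128.2 in crl1. At 0 h 24.3% of all kept probe sets were likewise lower in crl1 without overlap. The genotypes overlapped for SPL2 at 2 h and 4 h. Its mean difference was -0.32 ± 0.17 (limma adjusted p = 0.37). SPL4 was at -0.06 ± 0.19 over the mean on its brightest probe set (adjusted p = 0.90). Its other kept probe sets, which are dimmer, gave -0.46 ± 0.31 and 0.17 ± 0.40, and neither passed.

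SPL16, known as GW8 for its role in grain width, was at the level of the background, above it on 7 of 12 arrays. Its mean difference was 0.24 ± 0.27 (limma adjusted p = 0.70). Without IPA1, the 5 measured miR156 targets had 4 values below 0 at 0 h, 3 at 2 h, 2 at 4 h and 3 over the mean. Over all kept probe sets the shares below 0 were 53.1%, 43.2%, 46.5% and 45.9%. Over the mean SPL12, SPL2 and SPL4 lay below 0, and SPL7 and SPL16 above.

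Among the remaining SPL genes, SPL15 had the highest mean difference of the 11. Its signals ran from 1724 to 2520 in wild type and from 2225 to 3418 in crl1, with both crl1 arrays above both wild-type arrays at 0 h and at 4 h, as did 18.3% and 23.5% of all kept probe sets. Its difference was 0.68 ± 0.20 at 0 h (limma adjusted p = 0.38) and 0.30 ± 0.12 over the mean (95% interval 0.04 to 0.56, adjusted p = 0.24). SPL8, known as LIGULELESS1 for its part in forming the ligule, had the largest standard error of the 11.

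SPL8 was 20.4 and 28.0 in wild type at 0 h against 4.20 and 15.2 in crl1, the first of these below background. Its difference at 0 h, -1.58 ± 0.595 (limma adjusted p = 0.47), was lower than that of SPL12. Its mean difference was -0.52 ± 0.34 (adjusted p = 0.47). Over the mean, SPL1 was at -0.02, SPL6 at 0.02 and SPL9 at -0.13 on the log2 scale, with adjusted p from 0.53 to 0.96. SPL6 has a second, dimmer probe set that gave 0.34 ± 0.21 where the brighter gave 0.02 ± 0.13, and neither passed.

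At 0 h, before auxin, 7 of the 11 SPL genes had both crl1 arrays below both wild-type arrays, against 24.3% of all kept probe sets. They were IPA1, SPL2, SPL4, SPL6, SPL8, SPL9 and SPL12, while 2 genes, SPL15 and SPL16, had both crl1 arrays above, against 18.3%. IPA1 was chosen for its low signal in crl1, so its place here and at 2 h and 4 h below follows from that choice. The dimmer probe set of SPL6 went the other way at 0 h, with 114.9 and 115.5 in crl1 above 82.3 and 78.0 in wild type. On the dimmer kept probe sets of SPL4 the genotypes overlapped at 0 h. At 2 h 3 genes had both crl1 arrays below both wild-type arrays, IPA1, SPL12 and SPL16, against 15.7% of all. At 4 h these were IPA1 and SPL9, against 20.5%. SPL16 was above background on 7 of 12 arrays and SPL8 on 10, so their places in these counts are less certain. IPA1 was the 1 gene of the 11 with all 6 crl1 arrays below all 6 wild-type arrays, a separation chosen with IPA1 itself and found in 1.49% of all kept probe sets.

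With time after auxin, 0 of the 11 SPL genes passed the limma threshold in wild type or crl1 at either time, where 0.00307% and 0.0184% of all kept probe sets passed in wild type at 2 h and 4 h, and 0.04% in crl1 at 2 h. At an unadjusted p under 0.05 there were 2 SPL genes in wild type at 2 h, SPL4 and SPL15, 0 in wild type at 4 h, 0 in crl1 at 2 h and 2 in crl1 at 4 h, which were IPA1 and SPL12. Over all kept probe sets these shares were 7.80%, 6.89%, 5.10% and 6.16%. SPL15 in wild type was 0.46 ± 0.20 above 0 h at 2 h (adjusted p = 0.63), and its crl1 response minus its wild-type response at 2 h was -0.66 ± 0.29 (adjusted p = 0.87).

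Genes known to act with or downstream of IPA1, or in shoot and panicle branching and leaf timing, were taken as a second list of 33 genes, of which 14 had a probe set and 11 passed the filter. The names TB1, DEP1 and D53, 2 direct targets and a repressor partner of IPA1, matched 0 genes and are not analysed here. For crl1 against wild type over the mean, 0 of 11 passed and 7 lay below 0, against 1.38% and 45.9% of all kept probe sets. The median was -0.20, against 0.03 over all kept probe sets. In each other comparison 0 of 11 passed as well, and over the mean 3 had an unadjusted p under 0.05, as did 16.6% of all kept probe sets.

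D14, the strigolactone receptor, differed by -0.34 ± 0.15 (limma adjusted p = 0.30), and SLR1, the rice DELLA repressor of gibberellin responses, by -0.26 ± 0.25 (adjusted p = 0.64). The 3 genes with an unadjusted p under 0.05 are named after their values were seen. D3, the F-box protein of strigolactone signalling, was -0.57 ± 0.16 (adjusted p = 0.12), and PLA3, a peptidase that sets the pace of leaf formation, was -0.53 ± 0.13 (adjusted p = 0.083). MADS18, a MADS-box factor related to APETALA1, was -0.93 ± 0.26 (adjusted p = 0.11). Only 4 of its 6 crl1 arrays were above background, so the size of that difference is uncertain.

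D3 and PLA3, 2 of the 11 genes, had all 6 crl1 arrays below all 6 wild-type arrays, as did 1.49% of all kept probe sets. For D3 the wild-type arrays ran from 34.3 to 51.4 with a median of 39.4, and the crl1 arrays from 20.1 to 32.2 with a median of 27.9. For PLA3 they ran from 283 to 389 and from 177 to 267. MADS18 overlapped, with 19.1 to 45.7 in wild type and 12.1 to 19.7 in crl1.

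**Figure D3:**
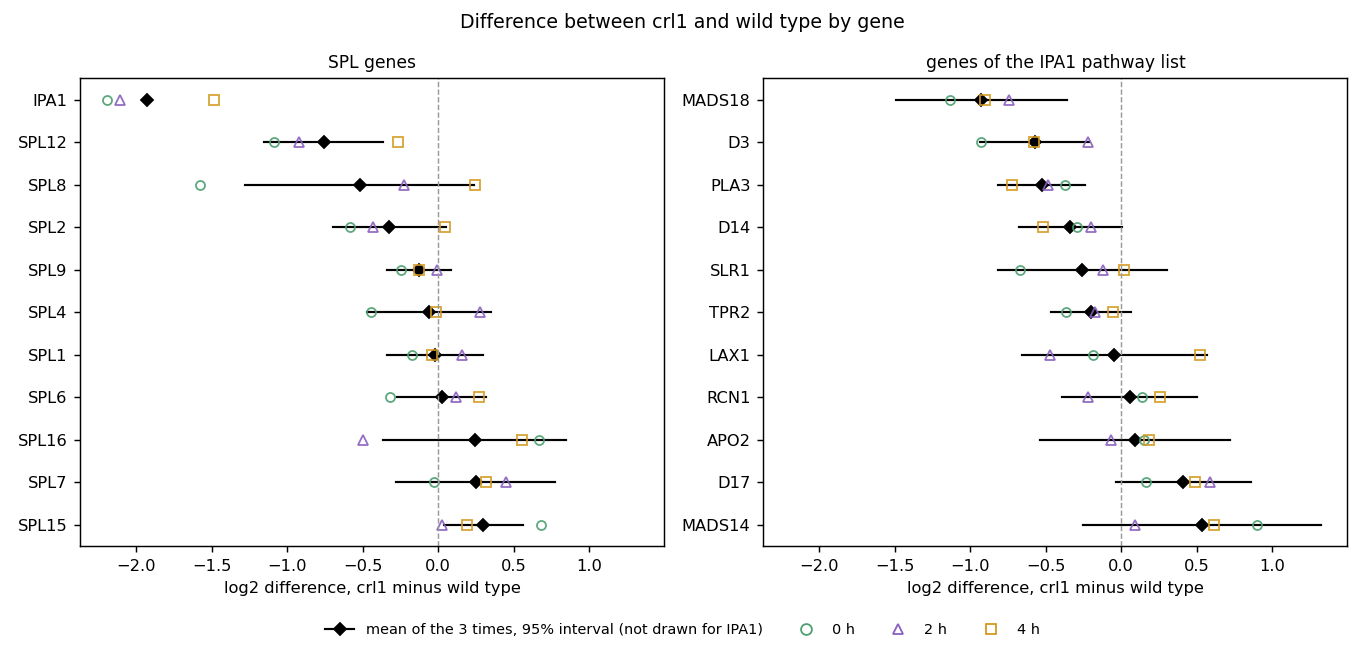
Log2 difference of crl1 minus wild type for the 11 SPL genes (left) and the 11 genes of the pathway list (right). Black diamonds with lines are the mean of the 3 times with its 95% interval, which is left out for IPA1, and open circles, triangles and squares are 0 h, 2 h and 4 h. IPA1 lay at -1.93 over the mean, SPL12 at -0.76 and SPL15, the highest of the SPL genes, at 0.30.

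Markers of other tissues that a stem base can hold moved in part with the genotypes. Over the mean, 45.9% of all kept probe sets lay below 0 and 1.38% passed, for comparison with each marker list. Of 4 root genes, 3 lay below 0 over the mean and 1 passed. PIN2, an auxin efflux carrier of root tips, ran from 22.8 to 39.8 in wild type and from 4.53 to 12.9 in crl1, where 2 of 6 arrays were above background. With the crl1 signals raised to the background where they lay below it, PIN2 was at least 2.46-fold lower in crl1 (limma adjusted p = 0.0035 for the deposited signals). The summed signal of the root genes was 101 to 161 in wild type and 81.2 to 127.1 in crl1. Of 3 leaf genes 1 passed, RBCS, the small subunit of Rubisco. On its brightest probe set it was 0.66 ± 0.12 lower in crl1 (limma adjusted p = 0.030). That difference was -0.25 at 0 h, -0.60 at 2 h and -1.14 at 4 h. On its dimmer kept probe sets the genotypes overlapped, with 77.4 to 155.4 in wild type and 48.6 to 171.7 in crl1, and with 189.8 to 1238 and 71.6 to 518.5. The summed signals of the leaf genes were 8038 to 15090 in wild type and 7927 to 10350 in crl1.

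Of 4 KNOX genes of the shoot meristem 0 passed, against 1.38% of all kept probe sets. Their summed signals were 1872 to 2957 in wild type and 1974 to 2503 in crl1. Of 5 YABBY genes of young leaves 0 passed, with 1962 to 2348 and 2210 to 2607. In each of these lists 0 genes were at or below background on all 6 arrays of a genotype. PIN2 and IPA1 correlated at r = 0.89 over the 12 arrays, -0.14 within wild type and 0.50 within crl1. The part of root or leaf tissue in the IPA1 values was not tested.

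The genes whose log2 signals ran most like IPA1 over the 12 arrays were looked for among 2307 named genes, by Pearson's r. The arrays fall into 2 clusters by genotype, so r over all of them spans the gap between the genotypes. The 6 highest were chia4a (LOC4336265, r = 0.95), Agglutinin (LOC4335068, 0.95), ADF-10 (LOC4349142, 0.93), IRL1 (LOC4336911, 0.92), CYCH-1 (LOC4334040, 0.91) and MPK10 (LOC4326668, 0.91). SPL12 had 0.77 and SPL9, known to act on miR528 in antiviral defence, 0.69.

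All 6 had lower medians in crl1, which follows from picking them for running like IPA1, but by very different amounts. Agglutinin, a lectin, had a median of 1976 in wild type and 16.3 in crl1, and chia4a, named for a chitinase, 551 and 148. The crl1 arrays of Agglutinin ran from 9.38 to 59.8, against array backgrounds of 5.83 to 18.5. It was above background on 11 of 12 arrays, and the size of its gap is uncertain. ADF-10, an actin-depolymerising factor, had 152 and 81.8, and CYCH-1, a cyclin, 245 and 187. Within a genotype the likeness was uneven: over 6 arrays, r with IPA1 was 0.55 in wild type and 0.79 in crl1 for chia4a, and 0.12 and 0.35 for Agglutinin. For ADF-10 it was 0.92 and 0.27, and for MPK10, a mitogen-activated protein kinase, 0.34 and 0.88.

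The 4 lowest were ILL8 (LOC4342839, r = -0.93), ARF14 (LOC4339313, -0.895), BGLU13 (LOC4336146, -0.89) and ARF2 (LOC4325895, -0.88). ILL8 is named for the hydrolases that free auxin from its amino acid conjugates, and ARF14 and ARF2 belong to the auxin response factors. The median of ILL8 was 22.2 in wild type and 39.5 in crl1, that of ARF14 69.7 and 91.4, and that of ARF2 239 and 358. Each of the 4, BGLU13 included (244.6 to 410.9 in wild type, 466.4 to 645.6 in crl1), had its lowest crl1 array above its highest wild-type array. They were picked for running opposite to IPA1, which separates the genotypes, so this separation is no further result.

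**Figure D4:**
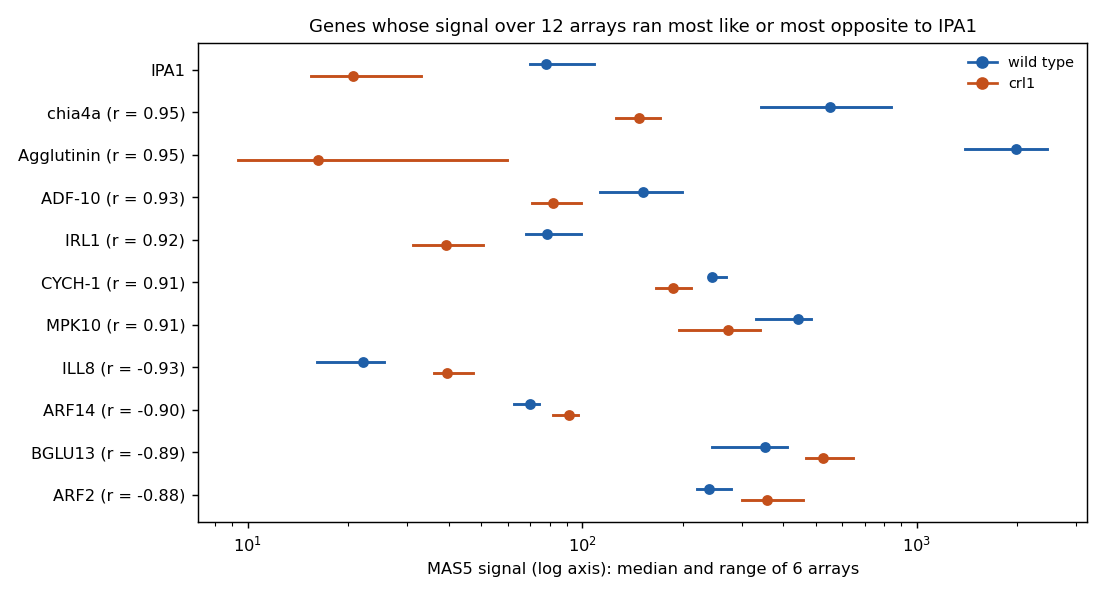
MAS5 signal (log axis) of IPA1 and of the 6 genes with the highest and the 4 with the lowest correlation with it. Points are medians and lines the range of the 6 arrays of a genotype, with r over the 12 arrays beside each name. Agglutinin had the widest gap, with medians of 1976 in wild type and 16.3 in crl1, while that of IPA1 was 78.2 against 20.7. The crl1 median of Agglutinin lay within the range of the array backgrounds.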

How the data were processed

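RNA of 12 stem base samples was hybridised to the Affymetrix Rice Genome Array. The authors deposited 1 linear intensity, the MAS5 signal, for each probe set. The submitters' processing notes name Affymetrix Expression Console, and its version is not given in the sources used here. Of 57381 probe sets, 123 are Affymetrix controls and 64 reporters of genes rice lacks, and 22436 have exactly 1 gene in the platform annotation. Groups and repetition numbers came from the sample labels.

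The log2 of the signal was used without rescaling. A filter asked for a signal over the array's rice median on 2 or more of 12 arrays, and 32524 probe sets of 16438 genes remained. All 3 probe sets of IPA1, SPL7 and HSFA4D passed. The model, 1 mean per group, ran in limma 3.58.1 under R 4.3.3 (lmFit, eBayes with trend), leaving 6 residual degrees of freedom beside a median prior of 4.79. P-values are two-sided and adjusted by the Benjamini-Hochberg method over all kept probe sets within a comparison, with a threshold of 0.05. Errors are standard errors of that fit. The 2 arrays per group limit the precision. Where a gene has several probe sets, the brightest stands for it. The fit was tested on simulated data.

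Members and lists were chosen with earlier results of these data known. The text names IPA1, both genes named SPL7, all measured SPL genes, D14 and SLR1 of the pathway list with any member past the threshold (0 passed), and the 6 genes most and 4 least like IPA1. D3, PLA3 and MADS18 lie outside that rule, and PIN2 and RBCS are markers past the threshold. The names SPL11 and SPL18 also belong to a spotted leaf gene and to AT1, which were left out of the family.

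The series describes 2 independent repetitions, numbered in the labels, and arrays of one number were taken as pairs. Deviations from the group means correlated above 0.1 in 11 of 15 pairs of groups, from 0.00776 to 0.249. Alternatives were median centring, quantile normalisation, other filters, log2(signal + 16), the repetition as a block, only the groups compared, array weights and leaving out each array.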

Additional observations from a re-analysis of the deposited data

How the results depend on the processing

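Of the alternatives other than leaving out an array, 278 values kept their direction and side of the threshold, or moved by less than the spread between arrays, and 4 reversed, 2 passed and 6 moved. With log2(signal + 16) the IPA1 difference was -1.57 at 0 h, -1.45 at 2 h, -1.14 at 4 h and -1.39 over the mean, since the added 16 shrinks low signals. Over the other settings and the left-out arrays its mean stayed between -2.03 and -1.84. With quantile normalisation IPA1 in wild type at 4 h was 0.0158 and its difference of responses at 2 h -0.23. SPL7 in wild type at 4 h was -0.0714 with median centring and -0.0657 with quantile normalisation. Median centring moved the median of all kept probe sets by over 0.1 in some comparisons, from 0.05 to -0.15 for crl1 at 2 h against 0 h. With median centring SPL12 over the mean was -0.86 (limma adjusted p = 0.021), and the count of SPL genes other than IPA1 past the threshold was 1, against 0. With the replicate block it was 1 as well, SPL12 at -0.76 (adjusted p = 0.021). The block changed no other call of a member. Over the 8 alternatives other than left-out arrays, the adjusted p of SPL12 ran from 0.021 to 0.092.

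Leaving out each array in turn gave 434 values that kept direction and call (for the genotype difference of IPA1, which has no test, that moved by less than the spread between arrays), 18 reversed, 2 that passed and 2 that moved. IPA1 ranged from -0.52 to 0.0167 in wild type at 2 h, from -0.28 to 0.26 in wild type at 4 h, from -0.34 to 0.0085 in crl1 at 2 h, and from -0.18 to 0.35 for the difference of responses at 2 h. SPL7 ranged from -0.41 to 0.36 at 0 h between genotypes, from -0.0081 to 0.76 in wild type at 2 h, from -0.35 to 0.42 in wild type at 4 h, and from -0.0403 to 0.73 for the difference of responses at 4 h. HSFA4D ranged from -0.29 to 0.61 at 2 h, from -0.12 to 0.39 at 4 h and from -0.008 to 0.29 over the mean, and SPL12 from -1.32 to -0.53 at 2 h, from -0.55 to 0.0206 at 4 h and from -0.89 to -0.63 over the mean. The count of SPL genes other than IPA1 past the threshold ran from 0 to 2 at 2 h and over the mean, with 2 (SPL2 and SPL12) without repetition 1 of wild type at 2 h, where the lone remaining array, the one that stood apart, is assumed to vary like the others. In that fit 4761 of 32524 probe sets passed at 2 h and 3675 over the mean, against 24 and 449 with all arrays. A filter at the 75th percentile removed SPL7 and HSFA4D and gave no value for them. IPA1 in crl1 and SPL7 throughout lay near background, so their ratios are less certain than those of brighter genes.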
